A study of Rattus norvegicus with 9 samples.

Results

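The genes described here encode the proteins of the mitochondrial ribosome, measured in medial prefrontal cortex. The tissue came from Wistar Kyoto rats, an inbred strain studied for its depression-like traits. The genes were taken by symbol from the table of read counts: every protein_coding gene whose symbol was Mrpl or Mrps followed by a number, which gave 76 of the 37991 genes listed, 46 of them Mrpl and 30 Mrps. Groups of 3 RNA-seq libraries, 3 groups in all, were compared, all from tissue taken on day 15. The K4 rats received K4, a compound known here only by its code name, intravenously through a cannula for 7 days, followed by 7 days without it. The Ketamine rats received ketamine, an anaesthetic that blocks NMDA-type glutamate receptors, subcutaneously for 7 days, again followed by 7 days without it. The Control rats received neither. Poly(A) RNA was sequenced with a stranded kit, and the libraries held between 27122207 and 42731004 counts. The labels give no dose and no vehicle, so in each drug group the compound cannot be told apart from its route and vehicle. They do not say that the 3 libraries of a group came from separate animals, so the p-values measure only the spread between these libraries, which may be technical.

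The mitochondrial ribosome makes the few proteins that the mitochondrial genome encodes, all of them membrane subunits of the respiratory chain and the ATP synthase. Its ribosomal RNAs come from the mitochondrial genome, but every one of its proteins is encoded in the nucleus, translated in the cytosol and imported. Many of these proteins have no bacterial counterpart. The small subunit (mostly Mrps symbols) reads the message while the large subunit (mostly Mrpl symbols) joins the amino acids. Neurons depend on oxidative phosphorylation, and inherited defects in single members cause respiratory chain disease in humans, often in the brain. Going by what is known of mammalian mitoribosomes, 27 of the genes encode large-subunit proteins with a bacterial homologue, 21 large-subunit proteins found only in mitochondria (with Mrps30 and Mrps18a, which sit in the large subunit despite their names), 16 small-subunit proteins with a bacterial homologue and 10 small-subunit proteins found only in mitochondria. Of the genes named for bacterial S18, only Mrps18c was counted as having a bacterial homologue. Mrps18a and Mrps18b were put in the classes found only in mitochondria, although they are versions of the same bacterial protein. Mrps36 is listed under an older name: RefSeq now calls it Kgd4, and its product belongs to the 2-oxoglutarate dehydrogenase complex. Mrps21l is a copy of Mrps21.

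Nuclear genes for mitochondrial proteins often carry sites for NRF1, for the ETS-family factor GABPA and for YY1 near their start sites. RefSeq promoters (assembly GRCr8) were on hand for 61 of the 76 genes, as the 250 bases before and 50 after the start. The NRF1 motif, the runs GCGCA and GCGC with 1 base of any kind between them, was found on either strand in 9 of the 61 windows, or 14.8%, against 4.71% of all 27457 promoters of that table and 6.77% of the 16685 that belong to protein_coding genes of the count table, as the members do. The ETS motif CCGGAAG was found in 21 (34.4%, against 9.22% of all and 12.3% of protein_coding genes) and the YY1 motif AAGATGGC in 15 (24.6%, against 3.44% and 4.02%). Within the 250 upstream bases alone, the YY1 motif lay only in Mrpl32, Mrpl36 and Mrpl48. In the other members that hold it, the match reached into the 50 bases after the start. The SP1 motif GGGCGG was found in 31 (50.8%, against 34.9% and 47.2%), a share close to that of protein_coding genes. No 2 of these 4 motifs contain one another, and a match is only a run of letters, not evidence of binding. For 18 of the 61 genes (29.5%) another gene starts within 1000 bases on the opposite strand, against 10.4% of all promoters and 11.5% of those of protein_coding genes. Mrpl46 and Mrps11, members of both subunits, lie back to back in this way.
The 250 upstream bases of 4 genes that were higher in Ketamine than in Control are shown, 5′ to 3′, because they hold these motifs, which are in capitals on whichever strand they lie. Mrpl17 lies at chr1:169575700-169575949 on the minus strand, Mrpl27 at chr10:80092095-80092344, Mrpl57 at chr15:36086207-36086456 and Mrpl58 at chr10:101145092-101145341, the last 3 on the plus strand.
Mrpl17: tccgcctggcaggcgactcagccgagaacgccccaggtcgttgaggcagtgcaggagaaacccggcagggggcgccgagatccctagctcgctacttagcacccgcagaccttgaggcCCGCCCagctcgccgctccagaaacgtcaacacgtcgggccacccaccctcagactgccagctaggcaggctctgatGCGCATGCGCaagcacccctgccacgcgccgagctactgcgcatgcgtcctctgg
Mrpl27: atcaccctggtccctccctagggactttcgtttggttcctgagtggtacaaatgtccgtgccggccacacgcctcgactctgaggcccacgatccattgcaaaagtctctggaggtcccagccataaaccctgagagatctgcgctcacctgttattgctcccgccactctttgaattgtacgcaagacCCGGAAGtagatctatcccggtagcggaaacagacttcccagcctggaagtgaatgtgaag
Mrpl57: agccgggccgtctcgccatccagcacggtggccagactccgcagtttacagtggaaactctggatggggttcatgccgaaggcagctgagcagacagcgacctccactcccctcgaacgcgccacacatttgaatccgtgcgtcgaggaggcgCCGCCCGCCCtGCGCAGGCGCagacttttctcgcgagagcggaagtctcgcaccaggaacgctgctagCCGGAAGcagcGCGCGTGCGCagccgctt
Mrpl58: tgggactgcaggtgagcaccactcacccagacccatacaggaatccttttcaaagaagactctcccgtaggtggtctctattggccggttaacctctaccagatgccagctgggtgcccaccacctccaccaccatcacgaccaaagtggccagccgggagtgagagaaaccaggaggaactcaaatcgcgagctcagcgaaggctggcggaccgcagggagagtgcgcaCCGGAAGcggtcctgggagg
Mrpl17 holds an NRF1 motif and an SP1 motif, Mrpl27 and Mrpl58 an ETS motif each, and Mrpl57 motifs of all 3 kinds. These 4 were picked for holding motifs and do not stand for a link to the calls: of the members with a promoter, 3 of 19 called for Ketamine against Control and 6 of 42 not called held the NRF1 motif, 9 and 12 the ETS motif, 4 and 11 the YY1 motif, and 11 and 20 the SP1 motif.

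All but 1 of the 76 genes were expressed above the filter on low counts. The exception was Mrps21l, which was therefore not tested. On the TPM scale, which divides counts by transcript length so that genes can be compared, 65 of the 75 genes lay between 20 and 80 TPM as a mean over the 9 libraries, and their median was 36.9 TPM. The large-subunit and small-subunit symbols were close to each other, with medians of 37.2 TPM for Mrpl and 34.6 TPM for Mrps. Mrpl17, a large-subunit protein with a bacterial homologue, had the highest level, 88.0 TPM. The next were Mrps21, a small-subunit protein, at 84.4 TPM, Mrpl49, a large-subunit protein found only in mitochondria, at 76.9 TPM, and Mrpl33, a small protein of the large subunit, at 74.3 TPM. Mrps28, described below, had the lowest mean, 3.09 TPM, with several libraries at 0. Above it at the low end were Mrpl40 with 10.3 TPM, Mrpl30 with 9.15 TPM and Mrpl1, whose bacterial homologue forms the mobile L1 stalk, with 8.48 TPM. Counts of Mrpl30 and Mrpl1 are uncertain, because a near copy of each is listed as a gene of its own and holds 48.3% and 61.4% of the counts of the pair.

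Most members varied little between libraries of a group in TMM-scaled CPM, the scaled counts explained below and used in the tests. On that scale the coefficient of variation within groups had a median of 6.99%. It was smallest in Mrps7, at 3.04%, Mrpl3, at 3.59%, and Mrpl17, at 3.74%. It was larger in Mrpl14, at 14.9%, and Mrpl50, at 13.3%, both large-subunit proteins. These percentages do not hold for TPM. In TPM, Mrps7 had 66.8 ± 1.65 in K4, 71.9 ± 2.57 in Ketamine and 54.5 ± 8.56 in Control (mean and SD). Mrps28, a small-subunit protein, behaved unlike the others: it had 0, 82 and 0 counts in the K4 libraries, 0, 0 and 101 in the Ketamine libraries, and 92, 0 and 92 in the Control libraries. It was thus either at 0 or near 90 counts, with both states in every group, and no difference between groups is given for it. Among all 18047 genes tested, 4 had at least 3 libraries at 0 and 50 or more counts in every other library.

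**Figure D1:**
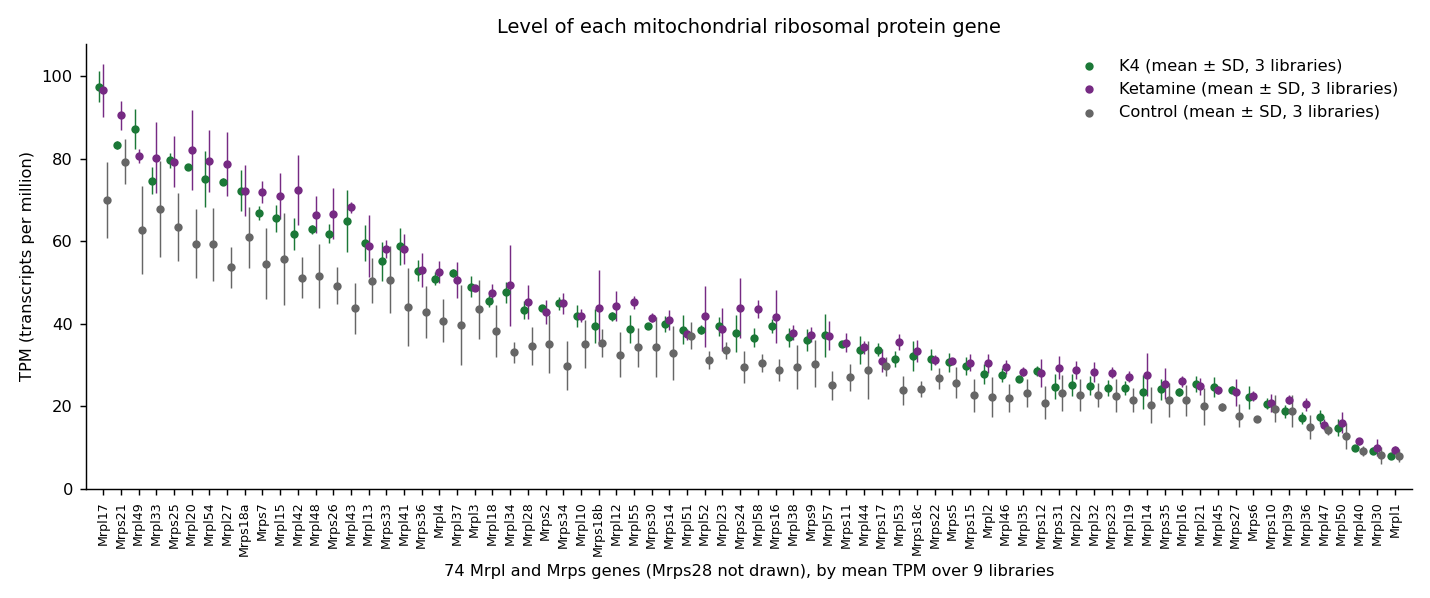
Mean TPM of 74 members in K4, Ketamine and Control libraries, with the SD over 3 libraries as bars, ordered by the mean over all 9 libraries. Levels run from 88.0 TPM in Mrpl17 down to 8.48 TPM in Mrpl1, and most Control points lie under those of the drug groups.

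As a group the members took up a larger share of the transcripts in both drug groups than in Control. Their summed TPM was 3037, 3006 and 3169 in the K4 libraries and 3047, 3374 and 3199 in the Ketamine libraries, against 2555, 2142 and 2817 in the Control libraries. Every drug library was thus above every Control library. TPM is a share of all transcripts, however, and genes of the mitochondrial genome took 10.4% to 11.4% of counts in K4 and 10.6% to 11.8% in Ketamine, against 11.6% to 19.0% in Control, which lowers every nuclear gene's share. With those genes left out of the total, the members held 0.175% ± 0.00271 of counts in K4 and 0.189% ± 0.00699 in Ketamine, against 0.158% ± 0.00460 in Control (SD, n = 3 each). The balance of the subunits moved little: Mrps symbols made up 37.7% ± 0.293 of the members' TPM in K4 and 37.5% ± 0.199 in Ketamine, against 38.4% ± 0.770 in Control (SD, n = 3 each).

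The tests of single genes used counts scaled by TMM, the trimmed mean of M-values, which sets each library's scale from the bulk of its genes. After that scaling, the median member stood at log2 deviations of -0.04, 0.03 and 0.01 from its own mean over the 9 libraries in K4, at 0.07, 0.14 and 0.13 in Ketamine, and at -0.10, -0.16 and -0.10 in Control. The 3 groups did not overlap on this measure, with Ketamine on top and Control at the bottom. Counts also leaned towards short or long transcripts to a different degree in each library. Each gene's log2 CPM, the counts scaled to library size, was taken as a deviation from its own mean over the 9 libraries. Its slope over all tested genes, per doubling of length, was 0.002, -0.021 and -0.010 in K4 and -0.017, -0.068 and -0.061 in Ketamine. In Control it was 0.061, 0.043 and 0.071. These slopes are relative to the average of the 9 libraries and are not absolute leanings of a library. Short genes therefore stood relatively higher in the Ketamine libraries, most of all in Ketamine replicates 2 and 3, and relatively lower in the Control libraries. The members are short: their lengths, implied by the ratio of counts to FPKM, ran from 0.557 to 2.72 kb with a median of 1.12 kb, against a median of 2.91 kb for all tested genes.

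**Figure D2:**
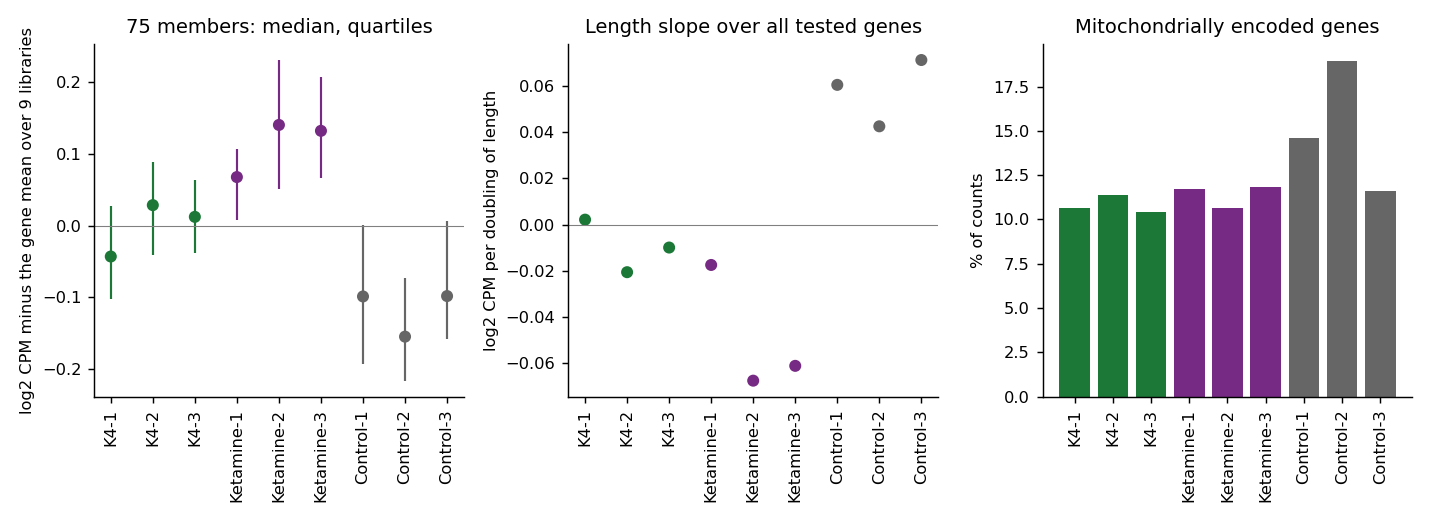
Values of each of the 9 libraries, K4 and Ketamine left of Control. Shown are the median log2 deviation of 75 members with its quartiles and the slope of such deviations on length over all tested genes. The last panel gives the percentage of counts from mitochondrially encoded genes. The members' median is lowest (-0.16) in Control replicate 2, where the mitochondrial share is highest (19.0%), and the slope is above 0.04 in all 3 Control libraries.

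The Ketamine against Control comparison asks whether the transcripts differ after 7 days without ketamine. Members of both subunits were higher in Ketamine: 22 of 75 were called higher and 0 lower at an adjusted p under 0.05 (edgeR quasi-likelihood test, Benjamini-Hochberg over all 18047 genes). Over all genes tested, 16.7% were called, 6.95% higher and 9.75% lower, so the members' share of 29.3% called higher was above this background. Among the 2415 genes between the quartiles of the members' lengths, 15.9% were called higher. The count of called members was 7 without Ketamine replicate 2, 14 without Ketamine replicate 3 and 14 without Control replicate 1. In those fits 6.39%, 8.48% and 9.84% of all genes were called in either direction, so calls fell over all genes too. Genes called higher numbered 425, 602 and 697 there, against 1254 with all 9 libraries. Once the length trends described above were taken out the count was 1, with 7.70% of all genes called in either direction. The median log2 fold change of the members was 0.22, and 71 of 75 were above 0, against a median of -0.002 and 49.7% of genes above 0 overall. In 44 members every Ketamine library was above every Control library, and in 1, Mrpl51, every one was below, against 16.9% and 18.1% of all genes. The calls spread over the 4 classes: 8 of 27 large-subunit proteins with a bacterial homologue, 7 of 21 large-subunit proteins found only in mitochondria, 4 of 16 and 3 of 10 of the matching small-subunit classes. In tissue samples of this kind, fewer cells of a type and less RNA per cell cannot be told apart.

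Mrpl43, a large-subunit protein found only in mitochondria, had the largest rise. It had 22.7, 22.5 and 22.4 CPM in Ketamine, against 15.7, 15.4 and 16.1 CPM in Control. The groups were far apart relative to their spread, and the log2 fold change was 0.52 (SE 0.084, edgeR adjusted p = 0.00183). Mrps34, a small-subunit protein whose loss destabilises the small subunit in mice and causes Leigh syndrome in humans, had 18.9, 20.5 and 20.4 CPM in Ketamine, against 14.2, 13.3 and 15.7 CPM in Control. Its log2 fold change was 0.47 (SE 0.086, edgeR adjusted p = 0.00333), again with no overlap. Mrpl17 had 50.3, 53.7 and 49.4 CPM in Ketamine, against 39.7, 40.7 and 41.5 CPM in Control. Its log2 fold change of 0.33 (SE 0.061, edgeR adjusted p = 0.00350) was smaller but rested on libraries that differed little within a group.

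The large-subunit genes Mrpl27 and Mrpl53 were called in each of the 9 fits that left out 1 library, as were Mrpl43, Mrps34 and Mrpl17. Mrpl27, which in bacteria reaches into the catalytic centre where peptide bonds form, had 25.2, 29.4 and 26.1 CPM in Ketamine, against 19.5, 20.9 and 19.8 CPM in Control (log2 fold change 0.42, edgeR adjusted p = 0.00401). Mrpl53, which lies at the stalk of the large subunit in human mitoribosomes, had 10.7, 11.3 and 10.6 CPM in Ketamine, against 7.32, 8.14 and 8.34 CPM in Control (log2 fold change 0.45, edgeR adjusted p = 0.00963). Counts of Mrpl53 are uncertain, since the near copy LOC103692169 holds 53.1% of the counts of the pair. The copy differed in the same direction: its log2 fold change was 0.41 (edgeR adjusted p = 0.0106). How reads that match both were counted is not given, so the copy may hold the same reads and is no independent support.

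The other named members of the called set have known parts in the cycle of translation. Mrpl12 forms the stalk that recruits translation factors, and it had 32.7, 36.6 and 33.0 CPM in Ketamine, against 26.8, 26.05 and 28.9 CPM in Control (log2 fold change 0.32, edgeR adjusted p = 0.0115). Mrpl58, also called ICT1, is a peptidyl-tRNA hydrolase built into the large subunit that can free stalled ribosomes. It had 17.0, 17.6 and 19.0 CPM in Ketamine, against 13.3, 14.4 and 13.1 CPM in Control (log2 fold change 0.39, edgeR adjusted p = 0.0119). Mrps7, which helps to shape the head of the small subunit, had 34.4, 36.0 and 35.7 CPM in Ketamine, against 29.9, 27.7 and 29.9 CPM in Control (log2 fold change 0.28, edgeR adjusted p = 0.0107). In all 3 the Ketamine libraries lay above every Control library. The remaining 14 called members were the large-subunit genes Mrpl4, Mrpl20, Mrpl28, Mrpl34, Mrpl42, Mrpl48, Mrpl54, Mrpl55 and Mrpl57 and the small-subunit genes Mrps15, Mrps16, Mrps24, Mrps26 and Mrps27. Their log2 fold changes ran from 0.24 in Mrpl48 to 0.44 in Mrps24, with edgeR adjusted p between 0.0127 and 0.0372, and all 14 had Ketamine libraries wholly above Control.

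Members with central roles were among those not called. Mrpl3, a core protein near the catalytic centre, had 39.2, 39.4 and 40.2 CPM in Ketamine, against 36.9, 37.4 and 40.8 CPM in Control. These values overlapped; the log2 fold change was 0.04, with a 95% interval of -0.09 to 0.18. Mrps12, which lines the decoding centre, had 10.2, 12.1 and 10.3 CPM in Ketamine, against 8.77, 8.09 and 9.40 CPM in Control. Those groups did not overlap, but the log2 fold change of 0.31 was not called (edgeR adjusted p = 0.0650). The 3 genes named for bacterial S18, which are alternative or relocated versions of 1 bacterial protein in mammals, had log2 fold changes of 0.12 in Mrps18a, 0.18 in Mrps18b and 0.34 in Mrps18c, none of them called (edgeR adjusted p = 0.338, 0.343 and 0.0516). Mrps22, a small-subunit protein found only in mitochondria, had a log2 fold change of 0.09 and Mrpl44, a large-subunit protein with an RNase III-like fold, of 0.14, neither called (edgeR adjusted p = 0.558 and 0.395). Mrps30 had 0.16, Mrps2 0.17 and Mrps36 0.18 on the same scale, also not called (edgeR adjusted p = 0.198, 0.133 and 0.135).

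**Figure D3:**
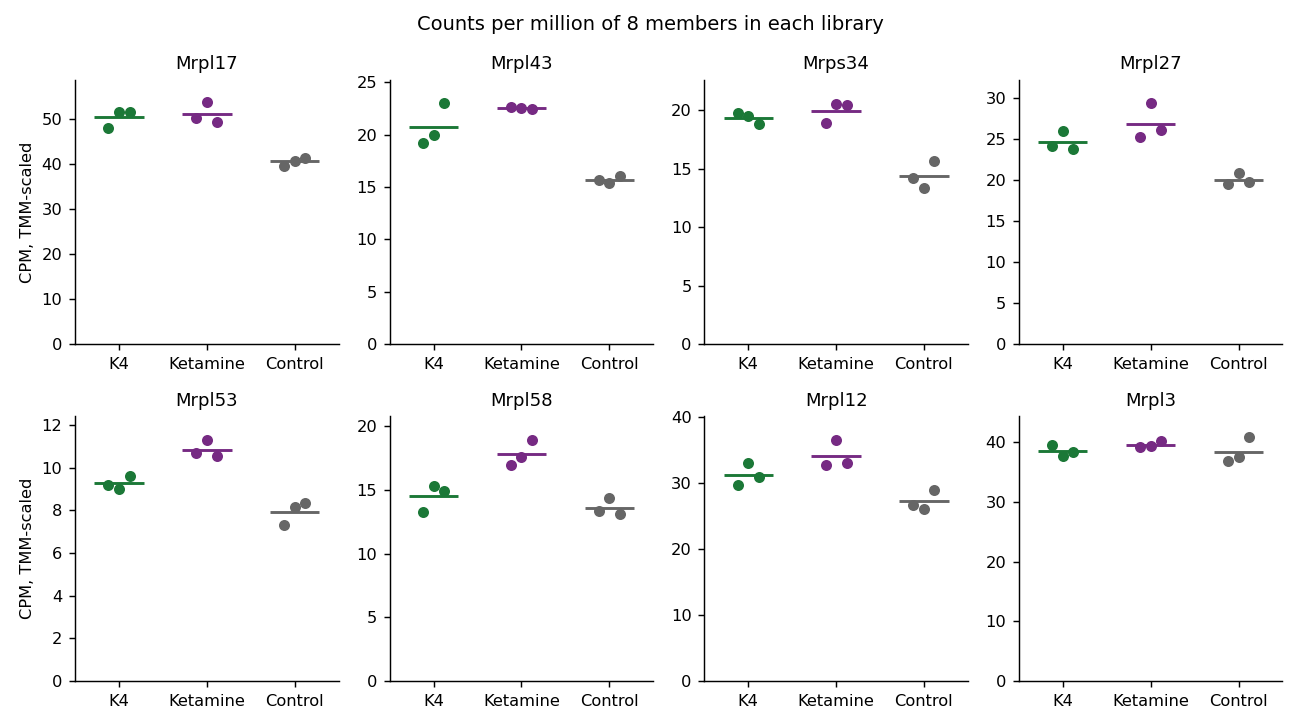
TMM-scaled CPM of 8 members in each K4, Ketamine and Control library, with the group mean as a line and the vertical axis from 0. In Mrpl17, Mrpl43, Mrps34 and Mrpl27 all drug libraries lie above all Control libraries, in Mrpl58 only the Ketamine libraries are clear of Control, and in Mrpl3 the 3 groups overlap.

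The K4 against Control comparison, which shares its Control libraries with the one above, gave fewer calls. Of the 75 members, 4 were called higher and 0 lower, or 5.33%. Of all genes, 6.07% were called in either direction, 2.27% higher and 3.8% lower. Among the 2415 genes between the quartiles of the members' lengths, 4.35% were called higher, closer to the members' share. The members' median log2 fold change was 0.10 with 61 of 75 above 0, against 49.3% of all genes above 0. In 23 members every K4 library was above every Control library, against 13.3% of all genes. Mrpl17 had 48.1, 51.6 and 51.7 CPM in K4, against 39.7, 40.7 and 41.5 CPM in Control (log2 fold change 0.31, SE 0.061, edgeR adjusted p = 0.0140). Mrps34 had 19.8, 19.5 and 18.8 CPM in K4, against 14.2, 13.3 and 15.7 CPM in Control (log2 fold change 0.43, SE 0.086, edgeR adjusted p = 0.0154). Both genes had K4 libraries wholly above Control. Mrpl43 had 19.2, 19.95 and 23.0 CPM in K4, against 15.7, 15.4 and 16.1 CPM in Control (log2 fold change 0.40, edgeR adjusted p = 0.0192). Mrpl27 had 24.2, 25.97 and 23.9 CPM in K4, against 19.5, 20.9 and 19.8 CPM in Control (log2 fold change 0.30, edgeR adjusted p = 0.0438). None of the 4 was called in all 9 fits that left out 1 library. The count was 0 without Control replicate 1, 0 without K4 replicate 3, 1 without K4 replicate 2 and 2 without K4 replicate 1. Of all genes, 0.946%, 1.24%, 1.88% and 1.30% were called in either direction in those fits. Genes called higher numbered 50, 82, 124 and 89 there, against 409 with all 9 libraries. The count was 2 when only the 6 K4 and Control libraries were fitted, and 0 once the length trends were taken out. In these 2 fits 2.53% and 2.40% of all genes were called in either direction.

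Some members called for Ketamine had smaller values for K4. Mrpl58 had 13.3, 15.3 and 15.0 CPM in K4, against 13.3, 14.4 and 13.1 CPM in Control, a log2 fold change of 0.09 with a 95% interval of -0.10 to 0.29. Mrpl55, a large-subunit protein, had 13.4, 13.02 and 14.8 CPM in K4, against 13.3, 13.4 and 14.001 CPM in Control, a log2 fold change of 0.01 with an interval of -0.17 to 0.20. Both genes overlapped between K4 and Control. The K4 value was the larger one in 5 of the 75 members. Mrpl49 was among them, with log2 fold changes of 0.31 in K4 and 0.24 in Ketamine, neither called (edgeR adjusted p = 0.0529 and 0.0758). Mrpl51, a large-subunit protein found only in mitochondria, was lower in value in both, with log2 fold changes of -0.12 in K4 and -0.13 in Ketamine (edgeR adjusted p = 0.365 and 0.299).

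**Figure D4:**
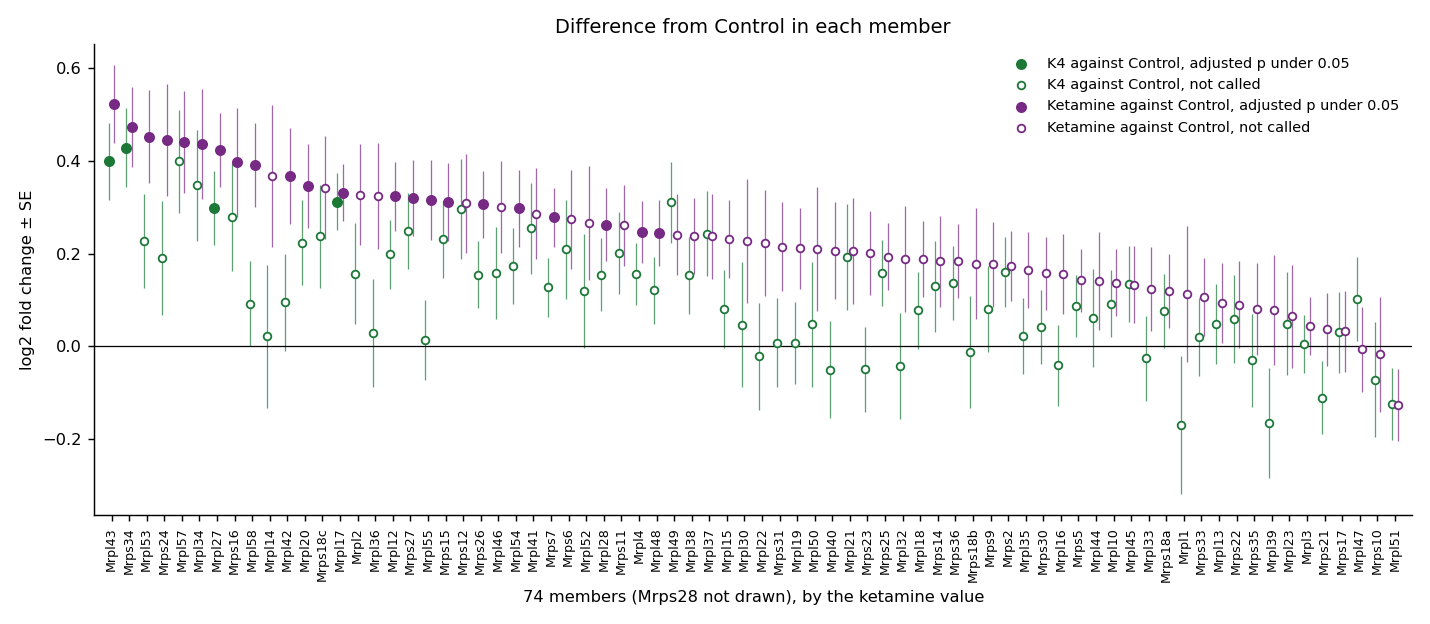
Log2 fold change with its SE for 74 members, K4 against Control and Ketamine against Control, ordered by the Ketamine value; filled points have an adjusted p under 0.05. All filled points lie above 0, 4 of them for K4 and 22 for Ketamine, and the Ketamine points fall under 0 only in Mrpl47, Mrps10 and Mrpl51 at the right end, while K4 points under 0 are spread more widely.

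The direct K4 against Ketamine comparison tests whether the drug groups differ from each other. They also differ in route, so a difference could not be assigned to the compounds. None of the 75 members was called, as was none of the 18047 genes (0%) by edgeR. At an unadjusted p under 0.05 there were 12 members, all lower in K4, among 1648 genes (9.13%), and DESeq2 called 0 members and 70 genes. The median log2 fold change was -0.11, and 70 of 75 were under 0, against a median of 0.002 for all genes, of which 50.5% were above 0. In 16 members every K4 library was under every Ketamine library and in 0 the reverse, against 8.29% and 9.49% of all genes. The smallest p belonged to Mrpl55, with 13.4, 13.02 and 14.8 CPM in K4, against 17.3, 16.1 and 17.2 CPM in Ketamine. These groups did not overlap, and the log2 fold change of -0.30 had a 95% interval of -0.49 to -0.11 (edgeR adjusted p = 0.337). The next were Mrpl58 with a log2 fold change of -0.30, Mrps23, a small-subunit protein found only in mitochondria, with -0.25, and Mrpl42, a large-subunit protein found only in mitochondria, with -0.27 (edgeR adjusted p = 0.378, 0.455 and 0.484). For Mrpl17 the interval of the difference ran from -0.15 to 0.11, and for Mrpl43 from -0.30 to 0.06.

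Transcript length moved with all 3 comparisons. Ordered into 10 equal bins of length, all tested genes had median log2 fold changes for Ketamine against Control that fell steadily from 0.21 in the shortest bin to -0.22 in the longest, and for K4 against Control from 0.13 to -0.15. Of the members, 40 lay in the shortest bin, 18 in the second, 17 in the next 3 and none in the 5 longest. In the shortest bin the members' median for Ketamine against Control was 0.28, against 0.21 for all genes there, and 15 of 40 members were called, against 17.5% of all genes called higher. In the second bin the medians were 0.21 for members and 0.13 for all genes, and in the fifth 0.19 for 8 members and 0.03 for all. In the second bin 3 of 18 members were called, a share near the 15.4% of all genes called higher there. Calls were 2 of 7 members in the third bin, against 12.1% of all genes, and 0 of 2 in the fourth, against 8.70%. In the fifth they were 2 of 8, against 6.09%. For K4 against Control the members' medians were 0.13 and 0.07 in the shortest bins, against 0.13 and 0.08 for all genes there, so these medians were close. In the longer bins they were further apart, 0.09 for 7 members against 0.06 for all genes in the third and 0.11 for 8 members against 0.02 in the fifth. Over the 2415 genes between the quartiles of the members' lengths, 0.861 and 1.55 kb, the median was 0.15 for Ketamine against Control, 0.09 for K4 against Control and -0.06 for K4 against Ketamine. Of these genes 15.9% were called higher for Ketamine against Control and 4.35% for K4 against Control.

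**Figure D5:**
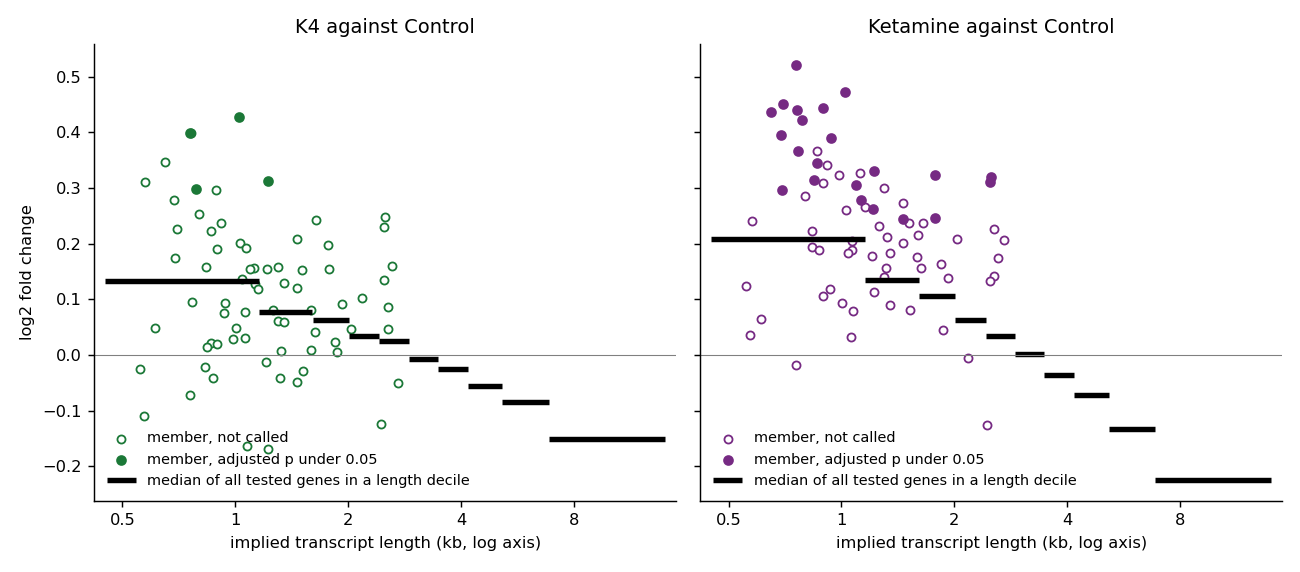
Log2 fold change of 74 members against implied transcript length on a log axis, for K4 against Control and Ketamine against Control, with the median of all tested genes in each length decile as black bars (outermost bars cut at the axis limits). The black bars step down from 0.13 to -0.15 for K4 and from 0.21 to -0.22 for Ketamine, and the members all lie in the 5 shortest deciles.

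Among the members themselves the shortest also had the largest median against Control. The shortest 25, of 0.557 to 0.917 kb, had a median log2 fold change of 0.31 for Ketamine against Control with 11 called, the middle 25 had 0.21 with 6 called, and the longest 25 had 0.20 with 5 called. For K4 against Control these sets had medians of 0.17, 0.08 and 0.09, with 2, 2 and 0 called. The longest were thus not below the middle there. Across the 75 genes, which share their libraries and are not independent, Pearson's r between log2 length and log2 fold change was -0.18 for Ketamine against Control and -0.07 for K4 against Control, against -0.28 and -0.20 over all tested genes. Spearman's rank correlation, which a single extreme gene such as Mrps28 moves less, was -0.28 and -0.16 for the members. The extremes of length did not all follow this order. The very short Mrpl33 (0.557 kb), Mrps21 (0.571 kb) and Mrpl49 (0.576 kb) had 0.12, 0.04 and 0.24 for Ketamine against Control, none of them called (edgeR adjusted p = 0.386, 0.793 and 0.0758). The longest members, Mrpl40 (2.72 kb), Mrps2 (2.61 kb) and Mrpl30 (2.55 kb), had 0.21, 0.17 and 0.23, none called (edgeR adjusted p = 0.197, 0.133 and 0.272).

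With each library's length trend taken out through an offset in the same test, 1 of the 22 calls for Ketamine against Control was left, and none of the 4 for K4 against Control. The members' median for Ketamine against Control became 0.10, with 55 of 75 above 0, against 0.004 over genes of similar length, and the background of genes called higher became 3.29%. For K4 against Control the background became 1.21%, and the members' median became 0.03 with 42 of 75 above 0. The median was -0.05 with 21 above 0 for K4 against Ketamine. The gene left was Mrps27, an RNA-binding protein of the small subunit with pentatricopeptide repeats and a long transcript of 2.51 kb. It had 25.7, 28.9 and 23.9 CPM in Ketamine, against 20.2, 20.8 and 21.9 CPM in Control. Its log2 fold change was 0.32 without the offset and 0.29 with it (edgeR adjusted p = 0.0188 and 0.0472). Mrpl43 kept a log2 fold change of 0.31 and Mrps34 of 0.29 with the offset (edgeR adjusted p = 0.0536 and 0.0595), and Mrpl17 of 0.18 (edgeR adjusted p = 0.0835). What made the length trend differ between libraries was not tested.

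Cell-type markers moved with the groups as well, and their part in the members' differences was not tested. The summed CPM of 5 astrocyte markers ran from 1937 to 2140 in K4 and from 1718 to 1904 in Ketamine, against 2266 to 3642 in Control, with the highest value in Control replicate 2. The sum of 5 neuronal markers ran from 4312 to 4713 in K4 and from 4578 to 4654 in Ketamine, against 3707 to 4728 in Control, and these ranges overlapped. Sums of 4 endothelial markers were 169 to 194 CPM in K4 and 131 to 163 CPM in Ketamine, against 204 to 300 CPM in Control. Microglial sums were 179 to 184 CPM in K4 and 159 to 164 CPM in Ketamine, against 179 to 269 CPM in Control, and oligodendrocyte sums 1862 to 2519 CPM in K4 and 1292 to 1681 CPM in Ketamine, against 1432 to 2354 CPM in Control. No marker set was at 0 in any library. Without Control replicate 2 the members' median for Ketamine against Control was 0.19 with 20 called, and for K4 against Control 0.09 with 4 called. Of all genes, 16.6% and 8.42% were called in either direction in that fit.

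Genes that work with the mitoribosome were counted from lists drawn up from general knowledge. Of 5 mitoribosomal proteins that carry other names, 2 were called higher in Ketamine than in Control and none in K4, against 6.95% and 2.27% of all genes called higher. Chchd1, a small-subunit protein, had 18.3, 20.2 and 19.4 CPM in Ketamine, against 14.9, 15.2 and 13.9 CPM in Control (log2 fold change 0.40, edgeR adjusted p = 0.00712). Gadd45gip1, a large-subunit protein also known as CRIF1, had 27.1, 27.0 and 24.4 CPM in Ketamine, against 21.8, 21.6 and 21.5 CPM in Control (log2 fold change 0.27, edgeR adjusted p = 0.0277). Both had groups that did not overlap. Of 12 mitochondrial translation factors 1 was called higher, a share near that background. This was Tufm, the elongation factor that brings in aminoacyl-tRNA, with 54.7, 53.2 and 53.4 CPM in Ketamine, against 45.9, 44.7 and 44.5 CPM in Control (log2 fold change 0.26, edgeR adjusted p = 0.0104). The medians of these lists for Ketamine against Control were 0.21 and 0.09. Chchd1 and Tufm were called in each of the 9 fits that left out 1 library, Gadd45gip1 was not, and with the length offset none of the 3 was called.

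Lists further from the ribosome are to be read against the same 6.95% and 9.75% of all genes called higher and lower in Ketamine. Of 24 genes for mitoribosome assembly and rRNA modification, Mterf4 and Mrm1 were called higher in Ketamine than in Control, with log2 fold changes of 0.49 and 0.30 (edgeR adjusted p = 0.0262 and 0.0478). Mterf4 helps to bring a methyltransferase to the large subunit in mice, and Mrm1 methylates the large ribosomal RNA. Of 17 mitochondrial aminoacyl-tRNA synthetases, Sars2 and Pars2, which charge serine and proline tRNAs, were called higher, with 0.53 and 0.51 (edgeR adjusted p = 0.0190 and 0.0488), beside a list median of 0.02. Of 10 genes for transcription and RNA handling, Slirp, a partner of the RNA-stabilising protein Lrpprc, was called higher with 0.33 and Gabpa was called lower with -0.30 (edgeR adjusted p = 0.0405 and 0.0282). Gabpa is the DNA-binding subunit of the ETS factor whose motif was counted above. Nrf1, whose motif was counted above too, had 15.1, 12.1 and 12.9 CPM in Ketamine, against 9.59, 11.8 and 10.6 CPM in Control (log2 fold change 0.33, edgeR adjusted p = 0.0639). Yy1, on the same list and with its motif also counted, was not called. With the length offset, only Mrm1 of the called genes on these 3 lists remained called (log2 fold change 0.37, edgeR adjusted p = 0.0317), and Nrf1 was called too (0.39, edgeR adjusted p = 0.0466). Each of the 6 calls without the offset was lost in at least 1 fit that left out a library. No gene of these 5 lists was called for K4 against Control, nor for K4 against Ketamine; the smallest p for K4 against Control were those of Chchd1 (0.18), Mtif3 (-0.24), Malsu1 (0.38), Sars2 (0.39) and Polrmt (0.23, all log2 fold changes).

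The messages that the mitoribosome reads lay in the other direction. Of the 13 protein genes of the mitochondrial genome, 6 were called lower in K4 and 5 lower in Ketamine than in Control, with medians of -0.63 and -0.54 on the log2 scale, against 3.8% and 9.75% of all genes called lower. ND6 had 179, 189 and 168 CPM in K4 and 204, 174 and 200 CPM in Ketamine, against 314, 420 and 244 CPM in Control. Every drug library was under every Control library, and the log2 fold changes were -0.87 and -0.76 (edgeR adjusted p = 0.0192 and 0.0127). ND5, also a subunit of complex I, had -0.78 and -0.74 on the same scale (edgeR adjusted p = 0.0248 and 0.0132). The Control values spread widely, with Control replicate 2 highest. Without that library the medians were -0.39 for K4 and -0.28 for Ketamine, with 6 and 3 genes called lower. Over all fits that left out 1 library the counts ran from 0 to 13 in both comparisons, and with the length offset they were 10 and 12. Between K4 and Ketamine none of the 13 was called, and the median log2 fold change was -0.07.

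Some members share sequence or transcripts in ways that touch their counts. Mrpl36 and the near copy LOC100910528 had almost equal counts in every library, for example 303 and 298 in Ketamine replicate 3, and the copy held 49.3% of the counts of the pair over all libraries. Their sum in CPM was 16.2, 18.3 and 17.4 in Ketamine, against 14.7, 12.5 and 14.3 in Control. These groups did not overlap, but neither gene was called for Ketamine against Control (log2 fold change 0.32 in each, edgeR adjusted p = 0.0707 for Mrpl36 and 0.0802 for the copy). The handling of reads that match both genes is not given, so the summed CPM may include reads counted for each of them. The implied transcript length, which moves when the mixture of isoforms moves, had a coefficient of variation over the 9 libraries above 5% in 3 of 74 members and above 2% in 8. It ran from 1.31 to 1.83 kb in Mrps35, from 2.23 to 2.87 kb in Mrpl30 and from 1.55 to 1.85 kb in Mrps31. In Mrps27, the gene still called with the length offset, it ran from 2.34 to 2.72 kb, with a coefficient of variation of 3.94%. In Mrps35 both extremes were Control libraries.

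The genes most like the members over the 9 libraries were found by Pearson's r with the members' mean log2 CPM. Among the highest that are no members were LOC691921 (0.98), Med29 (0.98), Resp18 (0.97) and Dnajc7 (0.97). Med29 is a Mediator subunit and Dnajc7 a co-chaperone. Of the members themselves 58 of 75, or 77.3%, had r over 0.5 with their own mean, which each of them enters, against 19.7% of the 17972 other genes. All these values share the same 9 libraries, with their differences in length trend and group.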

How the data were processed

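The deposited table holds raw counts per gene for 9 libraries with the authors' FPKM and TPM values beside them. Read handling used bcl2fastq 2.20.0, Trimmomatic, HISAT2 2.1.0, StringTie 2.1.3b and the rn6 build, per the submitters' processing notes; what tool counted the reads, and with which strand setting, is not given in the sources used here, so reads of overlapping antisense genes may not be separated. From the deposited counts, genes were kept by filterByExpr by group (minimum count 10, minimum total 15; 18047 genes), scaled by TMM and tested in 1 fit of all 9 libraries with the quasi-likelihood test of edgeR 4.0.16 (R 4.3.3); p-values were adjusted by Benjamini-Hochberg over all genes and called under 0.05. Transcript length was implied from the deposited counts and FPKM; only its relative size is meaningful. The length offset was a lowess on log2 length in each library, of log2 CPM minus the gene's mean over the libraries (span 0.3). The tests were tried on simulated counts with known changes. Alternatives were DESeq2 1.42.0, limma 3.58.1 on log2(FPKM + a pseudocount), and those in the closing section. Counts total 27122207 to 42731004 per library; intervals are 95% intervals of the fits.

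The members and lists were chosen with earlier results of these data known. Genes named singly were up to 8 called members per comparison and direction by p (or the 4 of smallest p), the extremes of level, length and variation, a fixed set of members of known role, and the called genes of each list (up to 4); Mrpl51, Mrps27, Mrps35, Mrps31, Mrpl36, Mrpl57 and Nrf1 were added after their values were seen. The symbols mrpl9, mrpl11 and mrpl24, in lower case in the table, are no members by the rule. Same-numbered libraries were not taken as pairs. Genes with 2 promoter entries kept the first. One gene of similar pattern is not reported here.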

Additional observations from a re-analysis of the deposited data

How the results depend on the processing

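The members' median log2 fold changes kept their sign, and no member was called lower, under every alternative run; K4 against Ketamine gave 0 calls in each of them. Other scalings, DESeq2, no filter on low counts and leaving out the 13 mitochondrial genes kept the counts within 1.5 times. With the length offset, K4 against Control gave 0 calls and a median of 0.027, Ketamine against Control 1 call and 0.10, and K4 against Ketamine a median of -0.049. On FPKM (a pseudocount of 0.1 or 1, mean of at least 1) K4 against Control gave 7 calls with medians of 0.15 and 0.14, and Ketamine against Control had a median of 0.27 with the pseudocount of 0.1; the median of all genes was then 0.05 for K4 and 0.06 for Ketamine. With no filter on FPKM, K4 against Control gave 0 calls and a median of 0.15, and Ketamine against Control a median of 0.27. Fitting only the 6 libraries of the pair gave 2 calls for K4 against Control. Leaving out 1 library at a time gave 0 to 6 calls and medians of 0.09 to 0.13 for K4 against Control, 7 (without Ketamine replicate 2) to 26 calls and 0.19 to 0.26 for Ketamine against Control, and 0 calls and -0.13 to -0.09 for K4 against Ketamine. Ketamine against Control gave 14 calls without Ketamine replicate 3 and 14 without Control replicate 1. The share of all genes called in either direction moved as well in the fits that left out 1 library. It ran from 0.946% to 8.42% for K4 against Control and from 6.39% to 17.4% for Ketamine against Control. Same-numbered libraries correlated weakly in their deviations from group means (-0.008 to 0.094), so the numbers were not taken as pairs; with a replicate block the calls were 4, 23 and 0, and with the block and the length offset together 0, 0 and 0, with medians of 0.030, 0.10 and -0.048. Counting mrpl9, mrpl11 and mrpl24 as members, an alternative chosen after seeing the data, left 4, 22 and 0 calls of 78. The cause of these shifts was not tested. Too few counts kept Mrps21l out of the tests.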
